A study of Mus musculus with 2 samples.

Results

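The genes described are the 6 members of the GAS6 and TAM receptor system, Gas6, Pros1, Axl, Mertk, Tyro3 and Mfge8, taken by gene symbol from the 32285 genes counted in the day 5 post-MTI library. TAM receptors (Tyro3, Axl and Mertk) are receptor tyrosine kinases that do not touch a dying cell themselves. Their ligands GAS6 and protein S, the product of Pros1, bind phosphatidylserine on the dying cell at one end and the receptor at the other, and so bridge it to the phagocyte that engulfs it (efferocytosis). MFG-E8, the product of Mfge8, makes the same kind of bridge to the integrins alpha v beta 3 and alpha v beta 5. Macrophages are the best known users of Mertk, whereas Axl is found in many cell types, fibroblasts and vascular cells among them. GAS6 and protein S must be carboxylated by a vitamin K-dependent enzyme before they can bind the membrane.

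Nuclei came from the tibial periosteum and callus of C57BL6 mice at day 5 post-MTI, a tibial fracture combined with crush of the surrounding leg muscles. The labels give no other allele and no treatment, and the study's methods give an age of 10 to 14 weeks at injury. Nuclei of 3 or 4 mice were pooled into 1 single-nucleus RNAseq library, so there is no replicate, no p-value is given and every interval is a 95% interval that covers counting error alone. The other library of the series, made from the same tissues of C57BL6 mice 1 day after fracture alone, differs in both injury and time and was not compared with it.

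The library held 1446 barcodes and 5899407 UMIs, of which 1127 nuclei with 4337337 UMIs and a median of 2364 UMIs were retained. The libraries of day 1 and day 5 shared 33 barcodes, 29 of them among the retained nuclei, and without these 29 the Mertk ratio of macrophage-like to skeletal lineage-like nuclei was 12.4 in place of 12.5. Clusters were made without the 6 members and the other genes of their pathway, and were named from fixed markers. This gave 289 macrophage-like, 177 skeletal lineage-like, 100 muscle fibre-like, 83 neutrophil-like, 59 monocyte-like, 49 mixed lymphoid and dendritic, 36 endothelial-like, 33 erythroid-like, 30 osteoclast-like and 27 satellite/myoblast-like nuclei. Clusters of 180 and 64 nuclei, with median depths of 691 and 715.5 UMIs, stayed unnamed. The study took myogenic nuclei out of its own analysis as contamination, whereas muscle fibre-like and satellite/myoblast-like nuclei were kept here. Pericytes and smooth muscle cells formed no cluster of their own, so endothelial-like nuclei are the only vascular nuclei named. The 7 macrophage markers summed to 4874 counts per 1000000 UMIs (CPM) in macrophage-like nuclei and to 155 CPM in skeletal lineage-like nuclei, and Col1a1 was at 74.7 and 2160 CPM, respectively. The 6 pericyte and smooth muscle markers were at 1059 CPM in satellite/myoblast-like, 682 CPM in skeletal lineage-like and 55.2 CPM in endothelial-like nuclei. Whether pericytes or smooth muscle cells lie within these populations was not tested. Of the skeletal lineage-like nuclei 21 held a UMI of Ptprc or Adgre1, and of the macrophage-like nuclei 109 held a UMI of Col1a1 or Col1a2.

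The members lie on 4 chromosomes in mm10. Gas6 is at chr8:13465374-13494490 on the minus strand, Pros1 at chr16:62854307-62929346 on the plus strand, Axl at chr7:25757273-25788705 on the minus strand, Mertk at chr2:128698956-128802894 on the plus strand, Tyro3 at chr2:119797733-119818104 on the plus strand and Mfge8 at chr7:79133768-79149060 on the minus strand. Gas6 and Mertk each overlap a gene of the opposite strand that was also counted. Tmem255b, which overlaps Gas6, had 8 UMIs in the retained nuclei, and Gm14011, which overlaps Mertk, had 1. Axl and Mertk are the members with at least 20 UMIs whose levels differed at least 2-fold between macrophage-like and skeletal lineage-like nuclei, in opposite directions, and the 250 bases before their RefSeq start (GRCm38.p6) are shown for that reason. Capitals mark matches to the motifs searched on both strands. The Axl stretch is chr7:25788734-25788983, minus strand, and the Mertk stretch is chr2:128698665-128698914, plus strand.
Axl: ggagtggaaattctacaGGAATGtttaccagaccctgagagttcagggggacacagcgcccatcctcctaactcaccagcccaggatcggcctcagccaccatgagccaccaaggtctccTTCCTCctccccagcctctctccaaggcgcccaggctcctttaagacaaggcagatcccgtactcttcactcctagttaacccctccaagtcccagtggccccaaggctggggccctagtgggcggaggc
Mertk: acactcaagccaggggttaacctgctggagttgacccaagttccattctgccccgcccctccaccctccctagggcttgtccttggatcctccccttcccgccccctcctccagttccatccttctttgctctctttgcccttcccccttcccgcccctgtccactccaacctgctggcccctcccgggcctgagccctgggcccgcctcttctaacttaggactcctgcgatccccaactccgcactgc
The Axl stretch held 1 match to CATTCC, the site of TEAD factors, and 1 to GAGGAA, the core of the PU.1 site, which stand in 12.6% and 23.3% of all 32851 promoter stretches of this length. It held no TGACTCA (AP-1, 4.46% of stretches), TGCTGA (part of the MAF site, 16.1%) or AGGTCA (part of the nuclear receptor site, 14.02%). The Mertk stretch held none of the 5 motifs. GC content was 60% in the Axl stretch and 63.6% in the Mertk stretch.

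Mertk, the receptor that macrophages use for dying cells, was high in one population (the plot of levels by population). It had 1193 UMIs in macrophage-like nuclei, a level of 938 CPM (886 to 993). Monocyte-like nuclei were at 192 CPM (134 to 267), endothelial-like nuclei at 38.7 CPM (15.5 to 79.7) and skeletal lineage-like nuclei at 74.9 CPM (59.1 to 93.6). Neutrophil-like nuclei, taken to lack the gene, were at 87.2 CPM (32.0 to 190; 6 UMIs). The endothelial-like and skeletal lineage-like levels were not above this level. Of the 6 neutrophil-like UMIs 3 were in 1 nucleus. The neutrophil-like nuclei also carried the 7 macrophage markers at 451 CPM, against 155 CPM in skeletal lineage-like nuclei, so they are not a clean control for absence of Mertk. Muscle fibre-like nuclei, with 1 UMI among 698713, were at 1.43 CPM (0.0362 to 7.97), the lowest level of Mertk in any named population. The skeletal lineage-like level was 52.3 times that of muscle fibre-like nuclei (9.12 to 2094). The level in macrophage-like nuclei was thus 12.5 times that in skeletal lineage-like nuclei (9.94 to 15.98), and 4.89 times that in monocyte-like nuclei (3.49 to 7.05). Monocyte-like nuclei carried the 7 macrophage markers at 6077 CPM, above the 4874 CPM of macrophage-like nuclei. Their monocyte markers were at 2677 CPM, against 237 CPM in macrophage-like nuclei, without a UMI of Ly6c2 or Chil3. With all resolutions halved, no monocyte-like population was named and 407 nuclei were macrophage-like. When nuclei with under 500 genes were left out before clustering, the monocyte-like level was 303 CPM in place of 192 CPM, and with under 0.5% mitochondrial UMIs it was 329.9 CPM. Of all Mertk UMIs in the retained nuclei, 82.7% (80.7% to 84.7%) were in macrophage-like nuclei, which held 29.3% of all UMIs.

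Erythroid-like nuclei followed macrophage-like nuclei in the order of Mertk levels, at 419 CPM (327 to 529). They carried the macrophage markers at 2125 CPM and the erythroid markers at 638 CPM. Adgre1 was detected in 16 of the 33 nuclei and Hbb-bs in 7. The unnamed cluster of 64 nuclei was at 354 CPM of Mertk (213 to 553) with the macrophage markers at 2014 CPM. Per 100 UMIs of the 7 macrophage markers there were 19.7 Mertk UMIs in erythroid-like, 19.2 in macrophage-like and 19.4 in neutrophil-like nuclei. In skeletal lineage-like nuclei there were 48.4, a ratio 2.52 times that of macrophage-like nuclei (1.97 to 3.17), although macrophage-like cluster 1 had a similar 47.0. The neutrophil-like value rested on 6 Mertk and 31 marker UMIs, and relative to macrophage-like nuclei its interval was 0.368 to 2.20. Values were 1.35 in muscle fibre-like, 2.80 in osteoclast-like, 3.16 in monocyte-like, 53.8 in endothelial-like and 64.7 in satellite/myoblast-like nuclei. Without the 21 skeletal lineage-like nuclei that held Ptprc or Adgre1, Mertk was at 64.4 CPM there in place of 74.9 CPM. The part of macrophage RNA in the levels of other populations was not tested. In osteoclast-like and satellite/myoblast-like nuclei the Mertk UMIs came from 1 nucleus each, 4 UMIs in the first and 11 in the second.

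**Figure D1:**
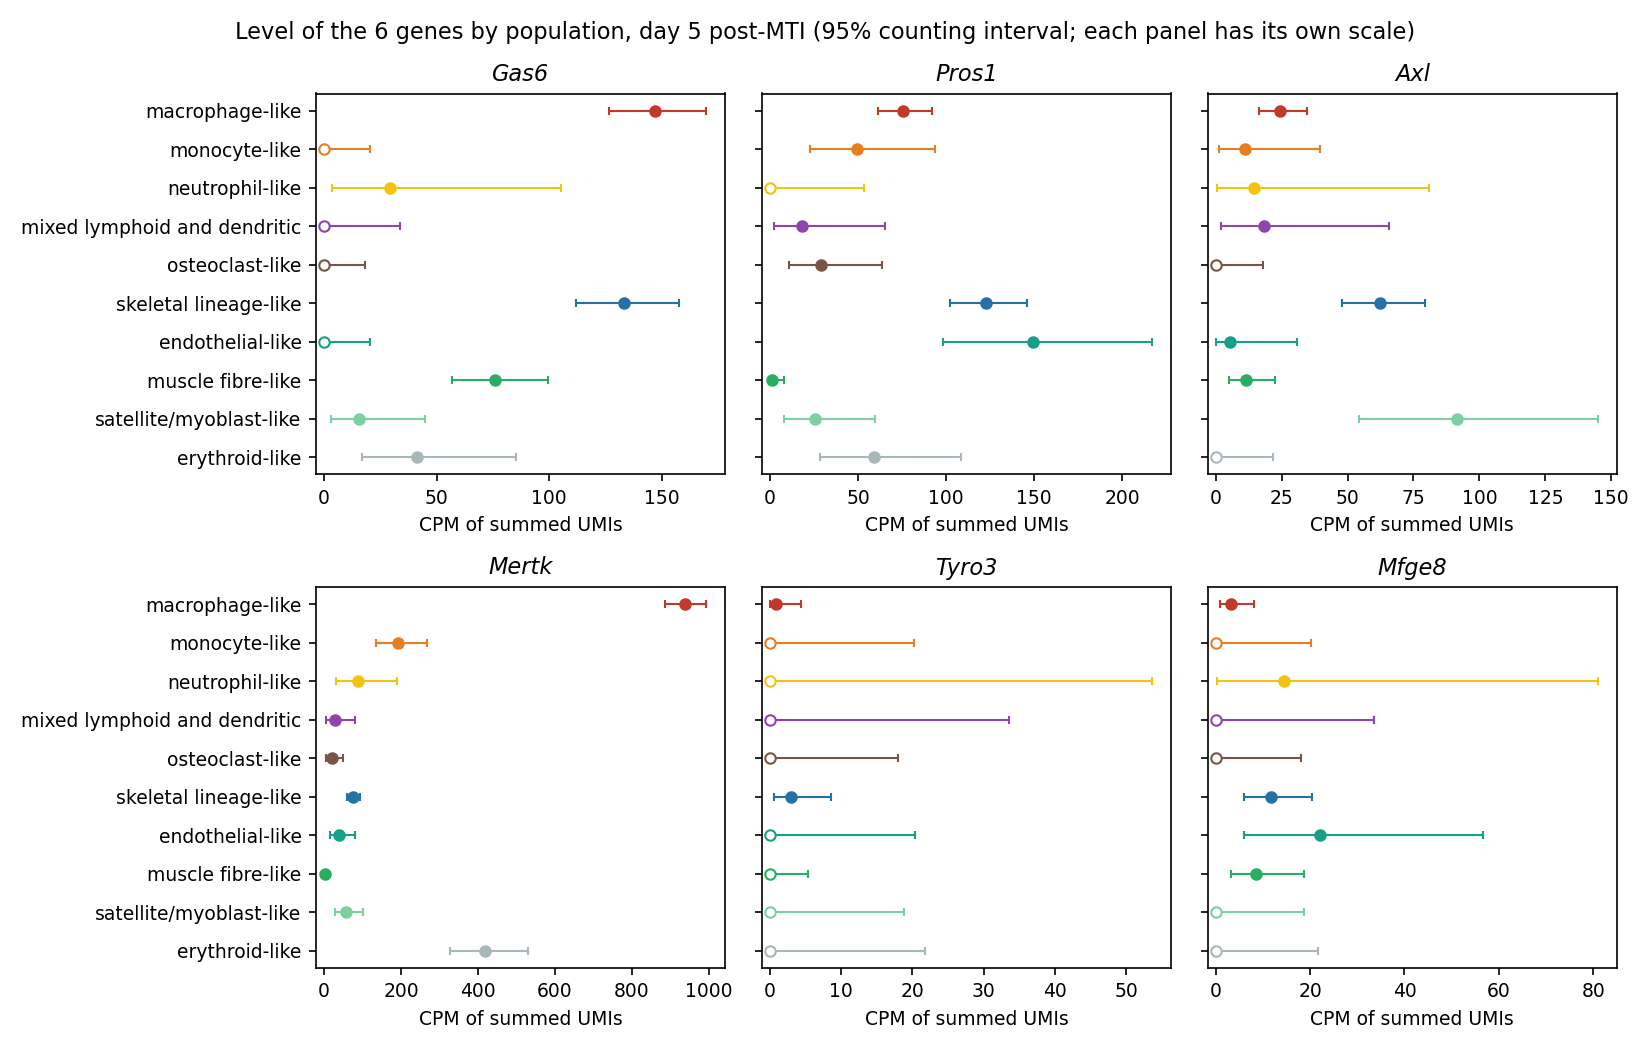
Level of each of the 6 genes in the 10 named populations, in CPM of the summed UMIs (horizontal axes, a scale for each gene); points are levels, bars 95% counting intervals and open points populations with 0 UMIs. Mertk stood highest in macrophage-like nuclei at 938 CPM, Gas6 was highest in macrophage-like and skeletal lineage-like nuclei at 147 and 133 CPM, and Axl in satellite/myoblast-like and skeletal lineage-like nuclei at 91.7 and 62.3 CPM.

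Nuclei differ in depth, so the share of nuclei with a Mertk UMI was taken after thinning each nucleus to 500 UMIs, a depth that all retained nuclei of the populations reached. A Mertk UMI was then present in 94 of 289 macrophage-like nuclei, 32.5% (27.2% to 38.3%), against 6 of 177 skeletal lineage-like nuclei, 3.39% (1.25% to 7.23%). In neutrophil-like nuclei, taken to lack the gene, it was 2 of 83, 2.41% (0.293% to 8.43%), at a median depth of 738 UMIs where macrophage-like nuclei had 3976 and skeletal lineage-like nuclei 3898. Erythroid-like nuclei, also taken to lack the gene, had it in 6 of 33, 18.2% (6.98% to 35.5%), beside their macrophage markers. With those markers above the erythroid markers, these nuclei are not a clean control for absence of the gene. The thinned share in skeletal lineage-like nuclei was not distinguishable from that of neutrophil-like nuclei at this depth. Without thinning the shares were 76.1% in macrophage-like and 21.5% in skeletal lineage-like nuclei.

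Gas6, a ligand of all TAM receptors, was found in immune and in skeletal nuclei. It was at 147 CPM (127 to 170; 187 UMIs) in macrophage-like nuclei and at 133 CPM (112 to 158; 137 UMIs) in skeletal lineage-like nuclei, a ratio of 1.10 (0.880 to 1.39) whose interval holds 1 and which fell on either side of 1 under other processing (0.938 to 1.32). In 1 skeletal lineage-like nucleus there were 20 of these UMIs, and the level without it was 115 CPM. Muscle fibre-like nuclei followed at 75.9 CPM (56.8 to 99.2; 53 UMIs), a level 1.94 times lower than in macrophage-like nuclei (1.42 to 2.68). These were the 3 highest levels among the named populations, and these populations held 46.5%, 34.1% and 13.2% of its 402 UMIs, respectively. No Gas6 UMI was found in monocyte-like, osteoclast-like, endothelial-like or mixed lymphoid and dendritic nuclei. Taken at the bound of 3 UMIs, endothelial-like nuclei would be at 16.6 CPM, 8.04-fold below skeletal lineage-like nuclei. The interval of their 0 UMIs reaches 20.4 CPM. Monocyte-like nuclei would be at 16.5 CPM by this bound, 8.94-fold below macrophage-like nuclei, with an interval up to 20.2 CPM. The bound lies below the upper ends of these intervals, so the folds may be smaller than 8.04 and 8.94. Osteoclast-like nuclei, another myeloid population with a median of 7548 UMIs, have a bound of 14.6 CPM. Neutrophil-like nuclei had 2 Gas6 UMIs, 29.1 CPM (3.52 to 105), satellite/myoblast-like nuclei 3, 15.3 CPM (3.15 to 44.7), and erythroid-like nuclei 7, 41.3 CPM (16.6 to 85.1). After thinning, 7.27% of macrophage-like (4.55% to 10.9%) and 6.78% of skeletal lineage-like nuclei (3.55% to 11.5%) held a Gas6 UMI, against 0 of 83 neutrophil-like nuclei, where the interval reaches 4.35%. Without thinning the shares were 32.5% in macrophage-like and 27.1% in skeletal lineage-like nuclei.

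Pros1, the gene of protein S, was highest outside the macrophages. Endothelial-like nuclei were at 149 CPM (98.3 to 217; 27 UMIs in 16 of 36 nuclei) and skeletal lineage-like nuclei at 123 CPM (102 to 146; 126 UMIs), and the ratio of the first to the second, 1.22 (0.772 to 1.86), did not differ from 1 beyond counting error. Macrophage-like nuclei were at 75.5 CPM (61.1 to 92.2; 96 UMIs), 1.62 times lower than skeletal lineage-like nuclei (1.24 to 2.14) and 1.98 times lower than endothelial-like nuclei (1.24 to 3.05). Monocyte-like nuclei, at 49.4 CPM (22.6 to 93.7), did not differ from macrophage-like nuclei beyond counting error. Muscle fibre-like nuclei, which held Gas6, had 1 Pros1 UMI, 1.43 CPM (0.0362 to 7.97). Endothelial-like nuclei thus held Pros1 and no Gas6 UMI, and muscle fibre-like nuclei held Gas6 and a single Pros1 UMI. After thinning 3.95% of skeletal lineage-like (1.60% to 7.98%) and 5.56% of endothelial-like nuclei (0.680% to 18.7%) held a Pros1 UMI, and 0 of 83 neutrophil-like nuclei did, with an interval up to 4.35%. The intervals overlap, so that these shares were not distinguishable from that of neutrophil-like nuclei at this depth. Without thinning they were 37.3% and 44.4%. At full depth neutrophil-like nuclei had 0 Pros1 UMIs, with an interval up to 53.6 CPM. That lies below the intervals of the skeletal lineage-like and endothelial-like levels.

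Axl, the TAM receptor that binds GAS6 most tightly, was at 91.7 CPM (54.3 to 145; 18 UMIs in 10 of 27 nuclei) in satellite/myoblast-like nuclei and at 62.3 CPM (47.9 to 79.5; 64 UMIs) in skeletal lineage-like nuclei. The ratio of these 2 levels was 1.47 (0.821 to 2.52). Macrophage-like nuclei were at 24.4 CPM (16.6 to 34.6; 31 UMIs), 2.55 times lower than skeletal lineage-like nuclei (1.64 to 4.06). The ratio of macrophage-like to skeletal lineage-like nuclei, 0.392, was 0.186 where macrophage-like clusters also needed a marker among their 100 leading genes, which left 173 macrophage-like nuclei. The level in macrophage-like nuclei was then 11.6 CPM, and under a limit of 0.5% mitochondrial UMIs it was 12.9 CPM, in place of 24.4 CPM. Muscle fibre-like nuclei were at 11.4 CPM (4.94 to 22.6), 8.01 times lower than satellite/myoblast-like nuclei (3.31 to 21.3). Endothelial-like nuclei had 1 Axl UMI, 5.52 CPM (0.140 to 30.8), a ratio of 0.0887 to skeletal lineage-like nuclei (0.00221 to 0.512). Osteoclast-like and erythroid-like nuclei had 0. Skeletal lineage-like nuclei held 47.1% of all 136 Axl UMIs and 23.7% of all UMIs, whereas macrophage-like nuclei held 22.8% of the Axl UMIs. After thinning 5.08% of skeletal lineage-like nuclei (2.35% to 9.43%) held an Axl UMI against 1.20% of neutrophil-like nuclei (0.0305% to 6.53%), and the intervals overlap. Without thinning the share in skeletal lineage-like nuclei was 23.7%.

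Tyro3 and Mfge8 were near the limit of detection. Tyro3, the TAM receptor best known from the nervous system, had 5 UMIs in all retained nuclei, 3 of them in skeletal lineage-like nuclei, 1 in macrophage-like nuclei and 1 in an unnamed cluster, and no ratio is given. Mfge8 had 29 UMIs. It was at 11.7 CPM (6.03 to 20.4; 12 UMIs) in skeletal lineage-like nuclei, 22.1 CPM (6.02 to 56.6; 4 UMIs, 3 of them in 1 nucleus) in endothelial-like nuclei, 8.59 CPM (3.15 to 18.7; 6 UMIs) in muscle fibre-like nuclei and 3.15 CPM (0.857 to 8.05; 4 UMIs) in macrophage-like nuclei. Its level in macrophage-like nuclei was 3.71 times lower than in skeletal lineage-like nuclei (1.12 to 15.8). Written as macrophage-like over skeletal lineage-like, this ratio was 0.269, and it ranged from 0.134 with the mean of the CPM of each nucleus to 0.441 without clusters 1 and 7.

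**Figure D2:**
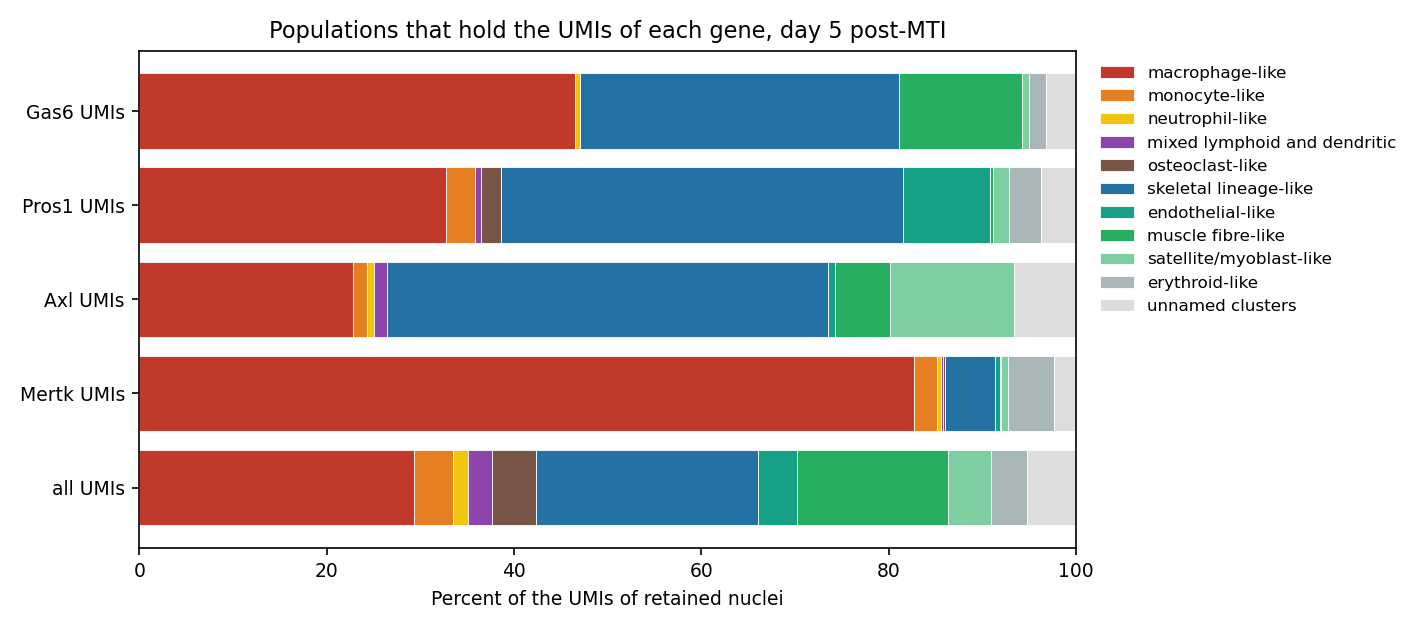
Share of the UMIs of Gas6, Pros1, Axl and Mertk that each population of retained nuclei holds, in percent, with the share of all UMIs in the lowest bar. Macrophage-like nuclei hold 82.7% of the Mertk UMIs and 46.5% of the Gas6 UMIs, and skeletal lineage-like nuclei hold 47.1% of the Axl UMIs and 43.0% of the Pros1 UMIs.

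Of the 4 members with at least 20 UMIs in macrophage-like and skeletal lineage-like nuclei together, Mertk was at least 2-fold higher in macrophage-like nuclei and Axl at least 2-fold lower, and Gas6 and Pros1 were within 2-fold. Among all 9962 genes with that many UMIs 20.0% were at least 2-fold higher and 23.9% at least 2-fold lower. Between macrophage-like and monocyte-like nuclei, where 16.7% of 7426 genes were at least 2-fold higher and 7.18% lower, Gas6, Mertk and Axl were higher by that fold. The Axl ratio of 2.22 rested on 2 UMIs in monocyte-like nuclei, with an interval of 0.565 to 19.2, and Pros1 was within 2-fold at 1.53 (0.773 to 3.45). Between endothelial-like and skeletal lineage-like nuclei, where 13.2% of 7900 genes were higher and 20.8% lower, Gas6 and Axl were lower, and Pros1 and Mertk were within 2-fold.

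The 5 macrophage-like clusters differed in which member they carried (the plot of levels by cluster). Their leading genes were Dnase1l3, Gpr162 and Adgre4 in cluster 1 (73 nuclei), Mmp12, Gpnmb and Spp1 in cluster 2 (69 nuclei), Vsig4, Cd163 and Pf4 in cluster 3 (60 nuclei), Ccl8, Cd163 and Mrc1 in cluster 6 (44 nuclei) and Ptgr1, Prdx1 and Hmox1 in cluster 7 (43 nuclei). These comparisons are between clusters of the same library and describe them without a test. Clusters 1 and 7 kept no macrophage name where a marker among the 100 leading genes was also needed. Gas6 was highest in cluster 6, at 315 CPM (245 to 399; 69 UMIs), 2.81 times the other macrophage-like clusters together (2.06 to 3.82) and 2.37 times skeletal lineage-like nuclei (1.75 to 3.18). Cluster 6 was also the cluster with the highest level of Mrc1, the gene of the mannose receptor CD206, at 3108 CPM, and held 28 of its 44 nuclei with a Gas6 UMI. Cluster 1 was at 160 CPM (117 to 213), cluster 2 at 86.2 CPM (58.2 to 123) and cluster 3 at 80.6 CPM (47.0 to 129). Cluster 7 was at 121 CPM (78.4 to 179), but 16 of its 25 Gas6 UMIs were in 1 nucleus, and its level without that nucleus was 47.2 CPM.

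Most Axl UMIs of macrophage-like nuclei, 22 of 31, were in cluster 1. Its level there, 76.5 CPM (47.9 to 116), was 8.36 times that of the other macrophage-like clusters together (3.70 to 20.6) and stood beside the 62.3 CPM of skeletal lineage-like nuclei. Cluster 6 had 7 UMIs, 32.0 CPM (12.9 to 65.9), and cluster 2 had 2. Clusters 3 and 7, the clusters with the highest Arg1 levels at 1394 and 2177 CPM, had 0 Axl UMIs. The bound of 3 UMIs is 14.2 and 14.5 CPM there. Mertk was present in every macrophage-like cluster. It was highest in cluster 1 at 1491 CPM (1353 to 1639) and in cluster 6 at 1152 CPM (1014 to 1303), and clusters 2, 3 and 7 followed at 739, 669 and 553 CPM. The intervals of clusters 2 and 3 overlap, as do those of clusters 3 and 7. In monocyte-like nuclei, where Arg1 was at 2446 CPM, Mertk was at 192 CPM. Pros1 varied less. It was at 109 CPM (69.1 to 164) in cluster 3, 101 CPM (67.5 to 145) in cluster 1, 86.8 CPM (52.3 to 136) in cluster 6, 48.5 CPM (23.2 to 89.2) in cluster 7 and 43.1 CPM (24.1 to 71.1) in cluster 2, where it was 2.03 times lower than in the other clusters together (1.16 to 3.80).

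**Figure D3:**
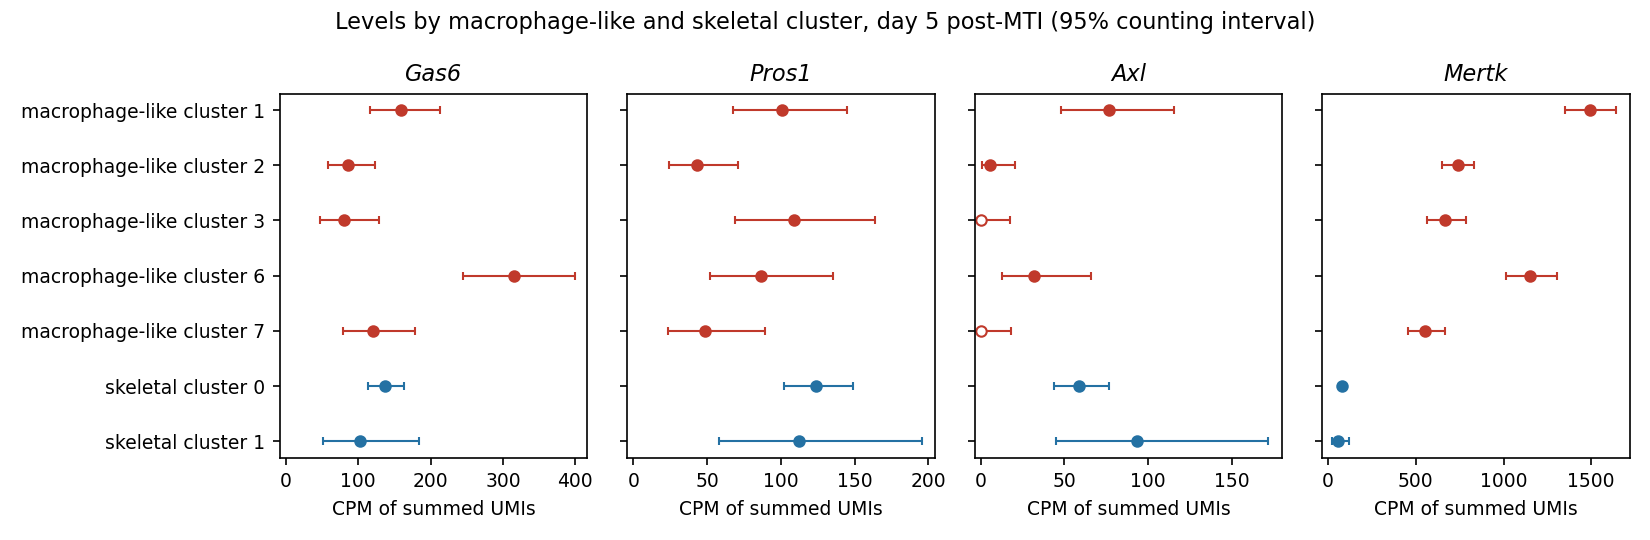
Levels of Gas6, Pros1, Axl and Mertk in the 5 macrophage-like (red) and 2 skeletal (blue) clusters, in CPM of the summed UMIs with 95% counting intervals; open points had 0 UMIs. Gas6 was highest in cluster 6 at 315 CPM, and Axl reached 76.5 CPM in cluster 1 and had 0 UMIs in clusters 3 and 7.

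Among skeletal lineage-like nuclei the members did not differ between clusters beyond counting error. Skeletal cluster 0 (109 nuclei with a median of 7795 UMIs) was led by cartilage genes such as Matn3 and Col9a1, and skeletal cluster 1 (68 nuclei with a median of 1422 UMIs) by Pi15 and Ntf3. Gas6 was at 137 CPM (114 to 163) in cluster 0 and 103 CPM (51.3 to 184) in cluster 1. Pros1 was at 124 CPM (102 to 149) and 112 CPM (57.9 to 196), Axl at 58.6 CPM (44.1 to 76.5) and 93.4 CPM (44.8 to 172), and Mertk at 77.1 CPM (60.2 to 97.3) and 56.0 CPM (20.6 to 122), respectively. With 6 to 12 UMIs of each of these genes in cluster 1, ratios of cluster 0 to cluster 1 from 0.317 to 1.38 for Axl and from 0.720 to 2.74 for Gas6 lay within the intervals.

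Ligand and receptor UMIs were often in the same macrophage-like nucleus. At full depth 94 macrophage-like nuclei held a Gas6 UMI, and 83 of these also held a Mertk UMI. Of 55 nuclei with a Pros1 UMI 50 held Mertk, and of 18 with an Axl UMI 16 held Mertk, whereas Mertk was found in 220 of all 289. In skeletal lineage-like nuclei 16 nuclei held both Gas6 and Axl, 32 held Gas6 without Axl, 26 held Axl without Gas6 and 103 held neither. In 21 muscle fibre-like nuclei with a Gas6 UMI no UMI of Axl, Mertk or Pros1 was found. These genes were rare there, in 6, 1 and 1 of all 100 muscle fibre-like nuclei, respectively. Deep nuclei hold more UMIs of every gene, so these counts are a description and carry no measure of association.

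The other 96 genes fixed for the pathway place the members among further steps of the clearance of dying cells. Of these, 80 had at least 20 UMIs in macrophage-like and skeletal lineage-like nuclei together, and 41 (51.2%) were at least 2-fold higher and 13 (16.2%) at least 2-fold lower in macrophage-like nuclei, beside 20.0% and 23.9% of all genes. The median log2 ratio was 1.10, against 0.00 over all 9962 genes. The lists were chosen with earlier results of these data known, so these counts describe the listed genes and are no test of the pathway. The ratios with the largest size were those of P2ry6, a receptor for nucleotides that dying cells release (254 UMIs against 1), C1qb, a subunit of the opsonin C1q (178 against 2), and Havcr2, the phosphatidylserine receptor TIM-3 (187 against 4), which were 205 times (36.5 to 8141), 71.9 times (19.6 to 599) and 37.8 times (14.5 to 140) higher in macrophage-like nuclei. In the other direction Gulp1, an engulfment adaptor, was 185 times lower (79.1 to 572), Timp3, an inhibitor of the metalloproteases that shed TAM receptors, 120 times lower (21.0 to 4788) and Bcar1, a scaffold of the CRK and DOCK1 route, 61.9 times lower (10.6 to 2492).

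Among other receptors for dying cells 11 of 13 measured genes were at least 2-fold higher in macrophage-like nuclei, with Cd36 at 548 and 16.5 CPM, Stab1 at 733 and 32.1 CPM and Itgb5 at 359 and 132 CPM in macrophage-like and skeletal lineage-like nuclei. The 2 that were lower were Itgb3, at 1.57 and 24.3 CPM, and Megf10, with 0 and 24 UMIs. Itgav, the alpha chain of the MFG-E8 receptors, was at 517 CPM in macrophage-like nuclei, 162 CPM in skeletal lineage-like nuclei and 442 CPM in endothelial-like nuclei. Of its partners, Itgb5 was at 359 CPM in macrophage-like and 38.7 CPM in endothelial-like nuclei, and Itgb3 at 1.57 and 133 CPM. Of the 10 other bridging molecules and opsonins, 5 (C1qa, C1qb, C1qc, Apoe and Lgals3) were higher in macrophage-like nuclei. Edil3, a secreted relative of MFG-E8, Thbs1 and Calr were lower, with Edil3 at 96.7 and 817 CPM, 8.45 times lower in macrophage-like nuclei (6.98 to 10.3). Mfge8 was also lower in macrophage-like than in skeletal lineage-like nuclei, but on 4 and 12 UMIs, under the limit of 20 UMIs used for the pathway genes. Over all genes 20.0% were at least 2-fold higher in macrophage-like nuclei and 23.9% lower, the shares to set beside the counts of receptors and bridging molecules. Against monocyte-like nuclei 0 of 11 measured receptors of this list were at least 2-fold higher in macrophage-like nuclei and 1 lower. Of the 10 bridging molecules and opsonins 5 were higher there and 1 lower. Over all genes 16.7% were higher and 7.18% lower in that comparison.

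Vitamin K carboxylation, the step that GAS6 and protein S need, was listed with 4 genes, of which 2 had at least 20 UMIs. Both were at least 2-fold lower in macrophage-like than in skeletal lineage-like nuclei, beside 23.9% of all genes. Ggcx, the carboxylase, was at 13.4 CPM (17 UMIs) and 61.3 CPM (63 UMIs), 4.58 times lower (2.65 to 8.36), and Vkorc1l1, which recycles vitamin K, at 69.2 and 183 CPM, 2.64 times lower (2.04 to 3.44). Gas6 itself differed by less than counting error between these populations. Of the receptor shedding genes Adam17, the protease that cuts MERTK from the surface, was at 225 and 55.5 CPM, 4.06 times higher in macrophage-like nuclei (3.04 to 5.49), Adam10 was within 2-fold at 1.92 (1.55 to 2.38), and Timp3 had 1 and 97 UMIs. Nr1h3, the gene of LXR alpha, a nuclear receptor known to induce Mertk, was the 1 of 6 nuclear receptor genes past 2-fold, at 44.0 and 3.89 CPM, 11.3 times higher in macrophage-like nuclei (4.18 to 43.0). Of all genes 20.0% were higher by that fold.

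Of the engulfment machinery 9 of 15 measured genes were at least 2-fold higher in macrophage-like nuclei and 3 lower, beside 20.0% and 23.9% of all genes. Dock2, the Rac activator of blood cells, was 30.9 times higher (24.2 to 40.2), whereas Dock1, its relative in other tissues, was at 447 and 627 CPM. Corpse degradation had 7 of 10 genes higher, with Cybb 35.2 times (14.9 to 110) and Slc37a2 10.5 times (6.87 to 16.8), and 0 lower. None of the 5 measured genes of phosphatidylserine exposure passed 2-fold in either direction at these UMI counts, with ratios from 0.600 for Plscr1 to 1.18 for Ano6. Of 9 measured signalling genes downstream of TAM receptors, 2 (22.2%) were higher, Grb2 and Ifnar1, and 2 (22.2%) lower, Src and Ptpn11. Both shares were near those over all genes. Sirpa, the receptor of the don't-eat-me signal Cd47, was at 1129 and 76.9 CPM, and Cd47 at 278 and 147 CPM. Against monocyte-like nuclei 0 of 13 measured engulfment genes were at least 2-fold higher in macrophage-like nuclei and 1 lower. Of 10 corpse degradation genes 0 were higher and 0 lower there, beside 16.7% and 7.18% of all genes.

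**Figure D4:**
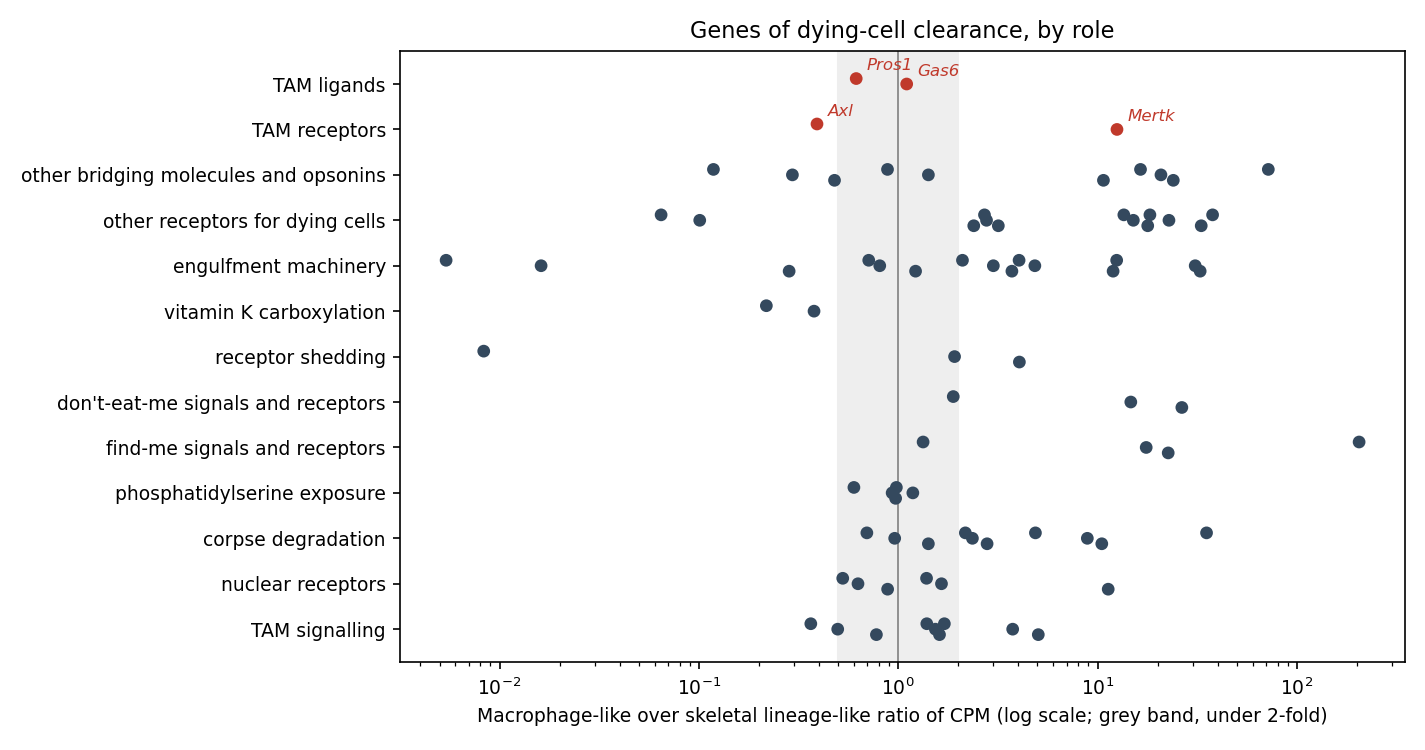
Macrophage-like over skeletal lineage-like ratio of CPM (log axis) of every pathway gene with at least 20 UMIs, in rows by role; members are red and named, the grey band holds ratios under 2-fold, and a gene with 0 UMIs in one population is drawn at its bound. Mertk lies right of the band at 12.5, Axl left of it at 0.392, and Gas6 and Pros1 inside it at 1.10 and 0.616.

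The pattern of each member over the 10 named populations was compared with that of all 9546 genes with at least 50 UMIs, by Pearson's correlation of log2(CPM + 10). The 10 points share 1 library, and their depth differs, so the values are a description. Most like Mertk were Slc36a1 (r = 0.938), Cacna1d (0.924), Tnfsf12 (0.906), F7 (0.904) and Adap2 (0.900). Most like Axl were Plxdc2 (0.920), Ankrd27 (0.897), Fap (0.892), Dtx3 (0.890) and Tmeff2 (0.888), and most like Pros1 were B3galnt1 (0.962), Copz1 (0.945), Klf8 (0.939), Slc39a1 (0.925) and Lrrc59 (0.910). For Gas6 the highest values were those of Phax (0.884), Chpf2 (0.882), A330015K06Rik (0.879), Gmppa (0.872) and Hivep3 (0.872). The genes closest to Mfge8, with its 29 UMIs, were 4933408B17Rik (0.952), Sema6d (0.922), Tmem132c (0.914), Trpm3 (0.913) and Adamts1 (0.910). Tyro3, with 5 UMIs, was closest to Ppp2r2b (0.992), Dkk2 (0.988), Shox2 (0.985), Adam33 (0.978) and Inhba (0.976), and these values rest on the single population with more than 1 of its UMIs.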

How the data were processed

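UMI counts of single nuclei were used. The authors mapped reads to exons and introns with Cell Ranger 7.0.1 (per the file headers) and deposited raw counts per gene and barcode; the submitters' processing notes name mm10, and the gene identifiers are mouse. Nuclei were sorted by a DNA dye and counted in a 3′ droplet assay. A protocol label names a human reference instead. Retained nuclei had 200 to 5000 genes, less than 5% of UMIs from mitochondrial genes and less than 2% from ribosomal protein genes. They were clustered with Seurat 5.3.0 on 2000 variable genes and 30 components at a resolution of 1.0, immune nuclei again on 20 components at 1.5 and skeletal nuclei on 15 components at 0.5, with 102 member and pathway genes left out and mitochondrial and ribosomal shares regressed out. Doublets were scored with Scrublet on 1143 nuclei; it called 4, of which 3 were among the retained nuclei and were kept. A cluster was named from at least 3 fixed markers with at least 1.5 times the level of other nuclei. Where any marker was among the cluster's 10 leading genes, the name had to be that of the cell type with the most such markers.

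Counts were summed per population and divided by all UMIs of it (CPM). Intervals are exact Poisson (levels), exact conditional binomial (ratios) and Clopper-Pearson (shares) at 95%. A count of 0 was given the bound of 3 UMIs, which lies below the upper end of its 95% interval. The ratio intervals were run on simulated counts of 9962 genes of the macrophage-like and skeletal lineage-like nuclei. They held the true value in 94% to 100% of genes at each fold. The counts were drawn per population from the Poisson model that the intervals assume, so this coverage was built in. UMIs that gather in single nuclei, as 16 of 25 Gas6 UMIs of macrophage-like cluster 7 did, were not simulated. The members and gene lists were chosen with earlier results of these data known. Named were the members, the pathway genes with the 3 largest ratios in each direction, those needed to say what a count holds, and the 5 genes most like each member. Gene positions are from GENCODE. The alternatives tried are given with their effects at the end.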

Additional observations from a re-analysis of the deposited data

Results flagged for a closer look

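The members were also counted outside the retained nuclei. In 5523 barcodes of the day 1 post-fracture library with 200 to 5000 genes, Gas6 was at 44.5 CPM, Pros1 at 24.0, Axl at 12.6, Mertk at 45.3, Tyro3 at 5.51 and Mfge8 at 9.84 CPM. The 43464 barcodes of that library with under 200 genes were at 35.2, 16.8, 12.1, 50.1, 2.48 and 9.20 CPM, respectively. Mertk was thus no higher in the 5523 barcodes than in those with under 200 genes. The 271 barcodes of the day 5 post-MTI library that the mitochondrial or ribosomal limit removed had Gas6 at 49.6, Pros1 at 83.0, Axl at 38.8, Mertk at 129 and Mfge8 at 11.9 CPM. The 21 barcodes removed for over 5000 genes had Gas6 at 33.4, Pros1 at 119, Axl at 51.8 and Mertk at 145 CPM. Each rested on more than 3 UMIs, the bound of a count of 0, and the populations behind these values were not analysed here.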

How the results depend on the processing

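Each ratio of macrophage-like to skeletal lineage-like nuclei was recomputed under up to 14 alternatives, 3 of them chosen after seeing the data, and 68 of 70 values lay within the interval of the ratio as reported. The Gas6 ratio, whose interval holds 1, fell below 1 with resolutions halved (0.958), resolutions doubled (0.993) and the mean of the CPM of each nucleus (0.938), and the other members' ratios kept their direction. Where names also needed a marker among the 100 leading genes, which leaves macrophage-like clusters 1 and 7 out, the Axl ratio was 0.186. Where nuclei with a UMI of the other population's defining genes were left out, the Mertk ratio was 16.7. The Gas6 ratio ranged from 0.938 to 1.32, that of Pros1 from 0.544 to 0.660 and that of Mfge8 from 0.134 to 0.441. With under 0.5% mitochondrial UMIs no skeletal lineage-like population was named, so that alternative gave no ratio. In that setting 134 nuclei were named satellite/myoblast-like, in place of 27. Whether skeletal nuclei were among them was not tested. Of 202 recomputed levels 193 lay within their interval. Shares of nuclei with a UMI depend on depth. Thinned to 1000 UMIs they were 50.2% for Mertk and 13.3% for Gas6 in macrophage-like nuclei. Without thinning they were 76.1% and 32.5% there, 27.1% for Gas6 and 23.7% for Axl in skeletal lineage-like nuclei, and 44.4% for Pros1 in endothelial-like nuclei. With genes of at least 1 UMI included, 20 of 94 pathway genes in place of 13 of 80 were at least 2-fold lower in macrophage-like nuclei. Over all genes with at least 1 UMI this held for 5839 of 20311. At least 2-fold higher were 46 of the 94 in place of 41, beside 4507 of the 20311. Leaving out a replicate was not possible with 1 library, and the spread between mice is unknown. No paired analysis was possible because each group is 1 library.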

Other observations

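Values of the pathway genes in 2 further comparisons are given for the named genes. Of 63 other pathway genes with at least 20 UMIs in endothelial-like and skeletal lineage-like nuclei together, 15 (23.8%) were at least 2-fold higher and 12 (19.0%) at least 2-fold lower in endothelial-like nuclei, beside 13.2% and 20.8% of all 7900 genes. S1pr1, the receptor for sphingosine 1-phosphate, had 25 UMIs against 1, a ratio of 142 (23.2 to 5828), Cd36 a ratio of 7.68 (3.93 to 15.3) and Itgb3 a ratio of 5.45 (2.98 to 9.95). Edil3 was 13.4 times lower (7.48 to 27.04), Src 8.98 times lower (1.54 to 361.6) and Lgals3 8.45 times lower (1.45 to 340.8), the last 2 on 1 UMI each in endothelial-like nuclei.

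Between macrophage-like and monocyte-like nuclei 9 of 73 measured pathway genes (12.3%) were at least 2-fold higher in macrophage-like nuclei and 5 (6.85%) lower, beside 16.7% and 7.18% of all 7426 genes, so neither count was above the share over all genes. P2ry12, a nucleotide receptor, was 21.8 times higher (3.85 to 866) and C1qc 8.75 times higher (1.51 to 351), each on 1 UMI in monocyte-like nuclei, and Anxa1, which binds phosphatidylserine, 5.11 times higher (2.31 to 14.1). Thbs1 was 7.69 times lower (6.06 to 9.77), the nuclear receptor Nr4a1 6.51 times lower (2.91 to 14.5) and Itgam, the integrin chain CD11b, 3.84 times lower (3.22 to 4.57).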
